A study of Mus musculus with 16 samples.

Results

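The enzymes of amino acid catabolism were described here through 42 genes, listed by symbol and present in the table of RNA levels of mouse liver, which held 50559 gene symbols. The list was divided by the amino acids that the enzymes break down into 8 aromatic, 12 branched-chain and 5 sulfur amino acid genes and 17 genes of other amino acids. All 42 passed the filter on low counts, as did 18335 genes in total. Male C57BL/6J mice entered the diets at 6 weeks of age, stayed on them for 10 weeks and were treated during the last 4 weeks, with 4 liver libraries in each of 4 groups. The labels number the replicates without saying that each is a separate mouse, so the p-values measure the spread between these libraries. The study set a knockdown of ketohexokinase (KHK), the enzyme that phosphorylates fructose, against an inhibitor of its kinase activity. The LFD group ate a low-fat diet, which the deposited labels call chow, and the HFD group a high-fat diet. Both of these groups were gavaged with methylcellulose and injected every 2 weeks with a control siRNA against luciferase (10 mg/kg). The HFD + siRNA group ate the high-fat diet and received an siRNA against Khk (20 mg/kg every 2 weeks) in place of the control siRNA, together with methylcellulose. This siRNA carries a sugar (GalNAc) that directs it to hepatocytes. The HFD + Inhib group ate the high-fat diet and was gavaged with the KHK inhibitor PF-06835919 (15 mg/kg) on top of the control siRNA. Gavage was given 2 times a day in all groups. The study's methods state that mice received saline or insulin shortly before the liver was taken, and the labels do not say which mouse received which.

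Most amino acids beyond what protein synthesis needs are broken down in the liver. Their nitrogen is passed to other acids by aminotransferases and leaves as urea, and their carbon skeletons become glucose, ketone bodies or fuel for the citric acid cycle. Aromatic and histidine breakdown runs mainly in the cytosol of hepatocytes, while the branched-chain acids, lysine, proline and glycine are broken down in mitochondria. Sulfur amino acid breakdown starts with methionine, which becomes the methyl donor S-adenosylmethionine, then homocysteine and, through cystathionine, cysteine.

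The libraries held between 24317111 and 35820234 expected counts, with a median of 29570114. Levels are given as CPM, the counts of a gene scaled to a common library size after TMM normalization, group values as mean ± SD (n = 4) and changes as log2 fold changes. They were tested by quasi-likelihood in edgeR, with p-values adjusted after Benjamini and Hochberg over the 18335 genes and a threshold of 0.05. Since the RNA comes from whole liver, fewer cells of a type and less RNA per cell cannot be told apart. Khk itself was measured first, as a check of the labels. Its level was 214, 233, 349 and 269 CPM in the LFD libraries and 251, 322, 233 and 251 CPM in the HFD libraries. It was 11.8, 9.14, 18.1 and 11.5 CPM in the HFD + siRNA libraries and 112, 152, 94.6 and 120.5 CPM in the HFD + Inhib libraries. The siRNA libraries thus held the lowest Khk levels, 20.9-fold below HFD (log2 fold change -4.38 ± SE 0.23, adjusted p = 1.9e-08). The inhibitor libraries also lay below every HFD library (log2 fold change -1.14 ± SE 0.20, adjusted p = 7.5e-04), and the LFD and HFD levels overlapped.

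Single libraries stood at the edge of their group for many of the 42 genes, and the same was not counted over all tested genes. HFD + siRNA replicate 1 held the highest level of its group for 29 genes. HFD + Inhib replicate 1 held the highest level for 26 genes and HFD + Inhib replicate 3 the lowest for 35. HFD replicate 2 was the lowest of the HFD libraries for 22, and HFD + siRNA replicate 4 was the lowest of its group for 22 and the highest for none. Counts of genes that changed are also given without these libraries.

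On the high-fat diet, 6 of the 42 genes rose and 4 fell relative to LFD. This is 23.8% of the list, where 18.4% of all tested genes were called, 9.58% higher and 8.80% lower. Most of these genes are well expressed, and among the 8699 genes with a mean log2 CPM of at least 3 the shares were 12.3% higher and 13.0% lower. The mitochondrial enzymes Bckdhb, Aldh6a1, Pcca, Gcdh and Agxt2 rose, as did Mat1a, while Haao, Cbs, Hal and Amdhd1 fell. In 14 of the 42 genes the LFD and HFD libraries did not overlap, against 20.4% of all genes. The median log2 fold change of the list was -0.0049, beside -0.01 over all tested genes. The count of genes that rose was 3 without HFD replicate 3 or 4 or LFD replicate 1, and the count that fell was 2 without HFD replicate 2 or LFD replicate 1 or 3.

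With the Khk siRNA, 8 of the 42 genes rose relative to HFD and none passed the test in the other direction. Among all tested genes 11.7% were called, 5.20% higher and 6.55% lower, and among the well expressed genes 7.85% higher and 10.0% lower. The genes that rose were Hpd, Fah, Bckdk, Cbs, Cth, Gpt2, Amt and Agxt2. By the sign of the log2 fold change alone 33 genes were higher and 9 lower, with a median of 0.17 beside 0.02 over all genes. The groups did not overlap for 12 of the 42 genes, against 20.6% of all genes. At an unadjusted p under 0.05, edgeR's test found 12 genes higher and 1, Hibch, lower, and DESeq2 at its adjusted threshold also found 8 higher and none lower. The count of 8 became 4 without HFD + siRNA replicate 1 or 3 or without HFD replicate 1, 3 or 4, and 5 without HFD + siRNA replicate 2. It was 6 without HFD replicate 2 or HFD + siRNA replicate 4.

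With the inhibitor, 4 genes rose and 2 fell relative to HFD. Of all tested genes 18.2% were called, 9.80% higher and 8.42% lower, and of the well expressed ones 14.8% higher and 10.3% lower. Mccc2, Hibch, Gpt2 and Aass rose, and Prodh and Gldc fell. The groups did not overlap for 10 of the 42 genes, against 23.3% of all genes, and the median log2 fold change was 0.02. All 6 genes that passed the test encode mitochondrial enzymes. The number that fell was 4 without HFD + Inhib replicate 1 and 1 without HFD + Inhib replicate 4, and the number that rose was 6 without HFD + Inhib replicate 3.

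The HFD libraries enter the diet comparison and the treatment comparisons with opposite sign. A fall on the diet and a rise with a treatment are therefore not independent results. Both treatments were compared with the same HFD libraries, so their changes share these values, and the test of the difference between them is the direct comparison of HFD + Inhib with HFD + siRNA. In it 15 of the 42 genes were lower and 5 higher with the inhibitor. This is 47.6% of the list, where 33.8% of all tested genes were called, 17.3% higher and 16.6% lower (24.6% and 20.7% of the well expressed genes). The median log2 fold change was -0.18, beside -0.04 over all genes, and 30 genes had a negative sign. The groups did not overlap for 13 genes, against 32.4% of all genes. Without HFD + Inhib replicate 3, 12 genes were lower and 6 higher, and without HFD + siRNA replicate 1, 11 were lower and 4 higher. The number that was higher was 2 without HFD + Inhib replicate 1 or HFD + siRNA replicate 4 (13 lower without the latter) and 3 without HFD + siRNA replicate 3.

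**Figure D1:**
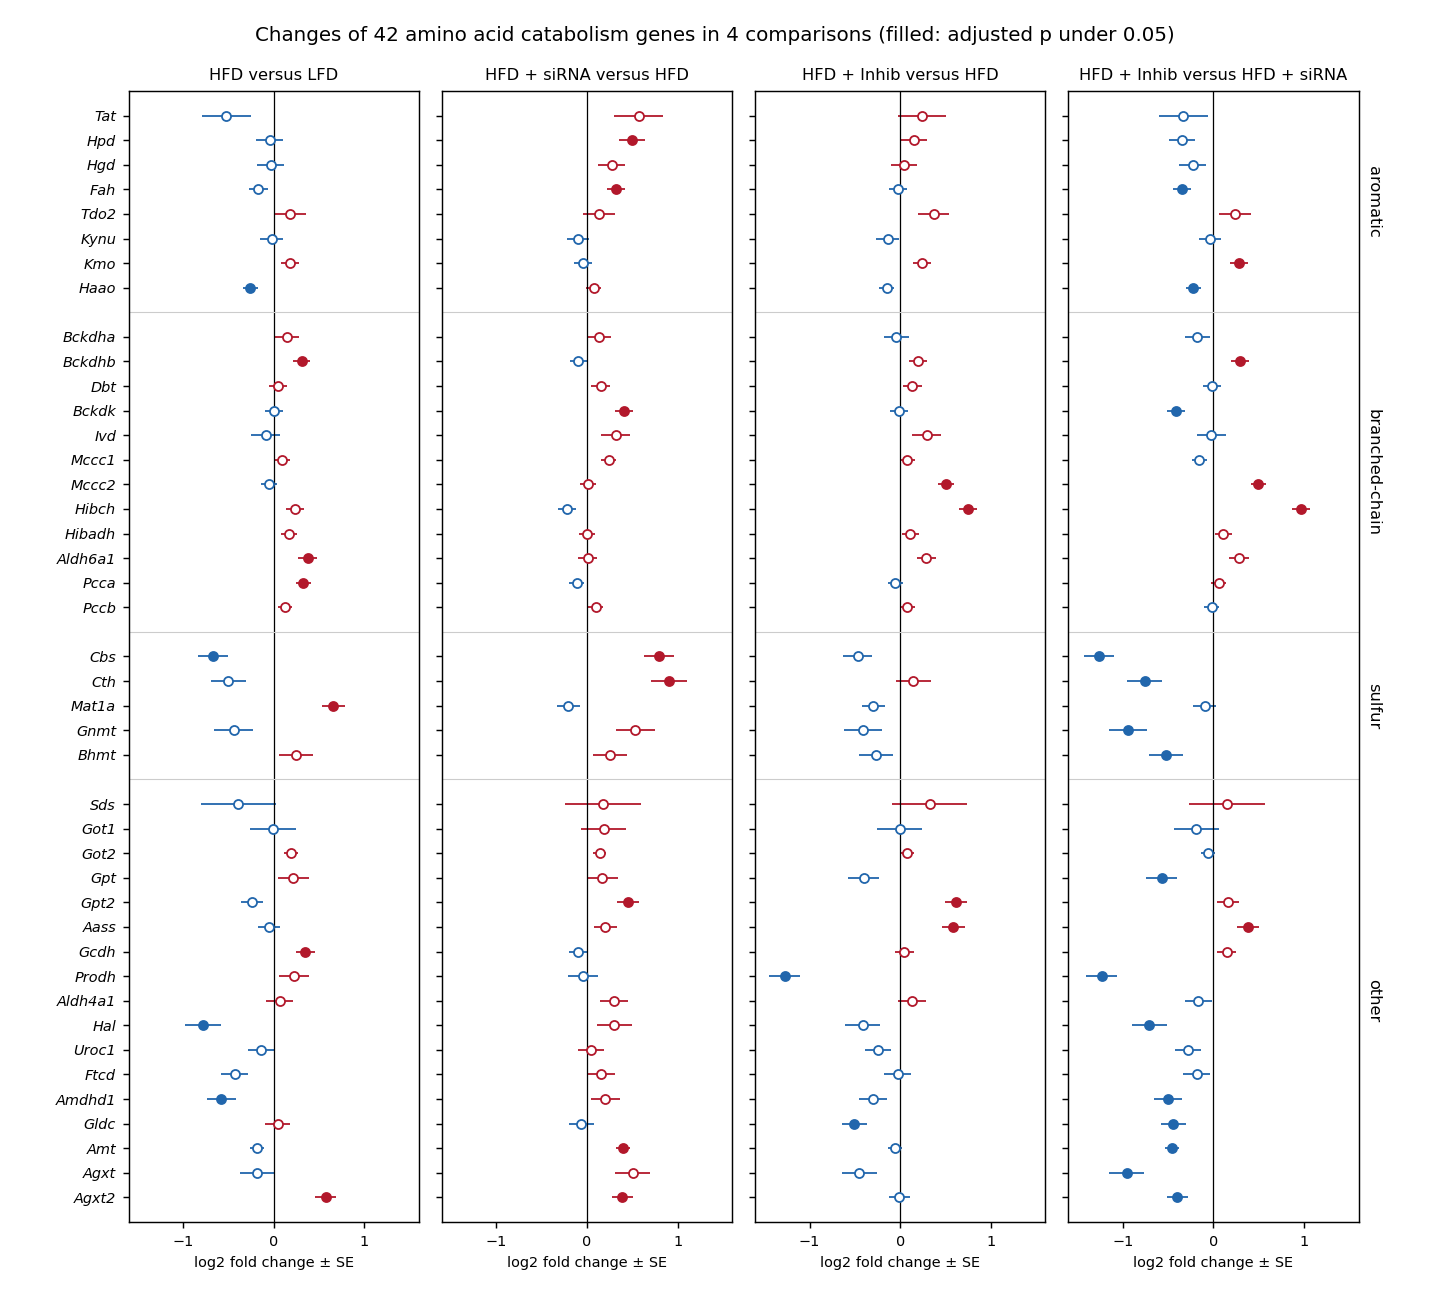
Log2 fold change of each of the 42 genes (horizontal axis, points with SE bars) in the 4 comparisons, grouped by amino acid, with filled points for an adjusted p under 0.05. The filled points of the siRNA comparison all lie to the right of 0 (8 genes), while 15 of the 20 filled points of the comparison of the treatments lie to the left.

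Of the 8 aromatic amino acid genes, 1 fell on the high-fat diet, 2 rose with the siRNA, none was called with the inhibitor relative to HFD (1 was higher at an unadjusted p under 0.05 in edgeR's test), and 1 was higher and 2 were lower with the inhibitor than with the siRNA. Over all tested genes the shares were 8.80% lower on the diet, 5.20% higher with the siRNA, and 17.3% higher and 16.6% lower between the treatments, where the 3 of 8 lie near the 33.8% called in either direction. Tyrosine breakdown is represented by Tat, Hpd, Hgd and Fah, in the order of the pathway. Hpd encodes hydroxyphenylpyruvate dioxygenase, which makes homogentisate. Its level was 1188, 1167, 1328 and 1194 CPM in the LFD libraries and 1249, 818, 1313 and 1346 CPM in the HFD libraries. With the siRNA it was 1897, 1552, 1777 and 1459.9 CPM, and with the inhibitor 1414, 1476, 1110.4 and 1248 CPM. All 4 siRNA libraries lay above the LFD and HFD libraries, and HFD replicate 2 was the lowest of all 16. Hpd rose with the siRNA relative to HFD (log2 fold change 0.50 ± SE 0.15, adjusted p = 0.0347). The lowest siRNA library overlapped the inhibitor libraries, and that difference did not pass the test (adjusted p = 0.0735).

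Fah encodes fumarylacetoacetate hydrolase, the last enzyme of tyrosine breakdown. The LFD libraries held 441, 344, 452 and 402 CPM and the HFD libraries 387, 321, 377 and 374 CPM of it. The HFD + siRNA libraries held 473, 444, 477 and 430.2 CPM and the HFD + Inhib libraries 385, 389.9, 325 and 331 CPM. The siRNA libraries lay above every HFD and every inhibitor library but not above every LFD library. Fah rose with the siRNA (log2 fold change 0.32 ± SE 0.10, adjusted p = 0.0481) and was lower with the inhibitor than with the siRNA (log2 fold change -0.35 ± SE 0.10, adjusted p = 0.0135). Tat, the aminotransferase that starts the pathway, varied widely within groups, with 896 ± 345 CPM in LFD, 623 ± 155 CPM in HFD, 926 ± 183 CPM in HFD + siRNA and 735 ± 282 CPM in HFD + Inhib. Although every siRNA library was above every HFD library for Tat, its log2 fold change of 0.57 ± 0.27 (SE) did not pass the test (adjusted p = 0.185). Hgd, homogentisate dioxygenase, was at 364 ± 1.63 CPM in HFD and 439.7 ± 73.7 CPM in HFD + siRNA, which did not pass the test either (adjusted p = 0.251).

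Tryptophan breakdown along the kynurenine pathway is represented by Tdo2, Kmo, Kynu and Haao. Kmo encodes kynurenine monooxygenase of the outer mitochondrial membrane, and its level was 188, 236, 222 and 233 CPM in LFD and 246, 249, 248 and 255 CPM in HFD. It was 238, 280.2, 225 and 224 CPM in HFD + siRNA and 327, 315, 259 and 276 CPM in HFD + Inhib. The inhibitor libraries lay above all HFD libraries, by a narrow margin, and overlapped the siRNA libraries. Kmo was higher with the inhibitor than with the siRNA (log2 fold change 0.28 ± SE 0.10, adjusted p = 0.0367).

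Haao, the dioxygenase that opens the ring of hydroxyanthranilate, was lowest with the inhibitor. Its LFD libraries held 313, 249.6, 296 and 271 CPM and its HFD libraries 230.1, 223, 247 and 244 CPM. With the siRNA the level was 273, 230.5, 249 and 242 CPM and with the inhibitor 212, 215, 218 and 207 CPM. The inhibitor libraries were the lowest of the 16, and the HFD libraries lay below the LFD libraries. Haao fell on the high-fat diet (log2 fold change -0.26 ± SE 0.08, adjusted p = 0.0373) and was lower with the inhibitor than with the siRNA (log2 fold change -0.22 ± SE 0.08, adjusted p = 0.0444). Tdo2, the first enzyme of the pathway, and Kynu, kynureninase, passed the test in none of the 4 comparisons, with group means of 777 to 1133 CPM for Tdo2 and 152 to 170.3 CPM for Kynu.

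Of the 6 aromatic results that passed the test, 5 depended on single libraries and on the correction for GC content, the change of Hpd among them. The siRNA call of Fah was lost without any 1 of the 8 libraries compared (adjusted p 0.065 to 0.137), and that of Hpd without HFD replicate 1, 2 or 3 or HFD + siRNA replicate 1, 3 or 4 (0.0503 to 0.107). Kmo was lost without HFD + siRNA replicate 1, 3 or 4 or HFD + Inhib replicate 1 or 2 (0.0678 to 0.0931). Haao was lost without LFD replicate 1 or 3 or any HFD library in the diet comparison (0.0591 to 0.139). In the comparison of the treatments it was lost without any library but HFD + siRNA replicate 2 (0.0641 to 0.173). With offsets for GC content and length none of these 5 results passed (adjusted p = 0.135 for Hpd, 0.11 for Fah, 0.87 for Kmo, and 0.311 and 0.748 for Haao), while the lower Fah level with the inhibitor than with the siRNA did (0.023).

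**Figure D2:**
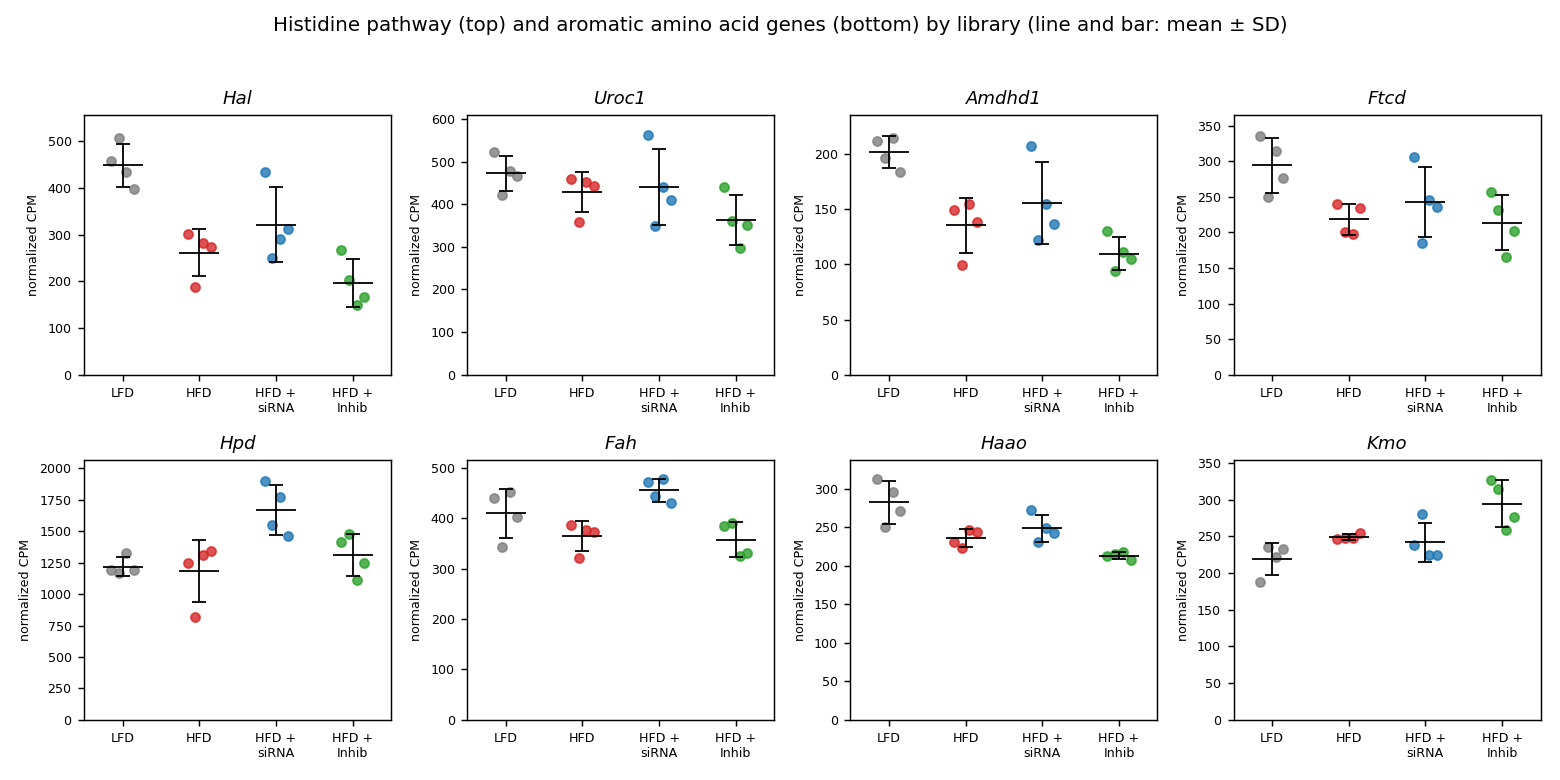
Normalized CPM (vertical axis, from 0) of 4 histidine pathway genes (upper row) and 4 aromatic amino acid genes (lower row) in each of the 16 libraries, with the group mean (line) and SD (bar). The LFD libraries of Hal and Amdhd1 lie above all HFD libraries, and the HFD + siRNA libraries of Hpd and Fah lie above all HFD libraries.

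Of the 12 branched-chain genes, 3 rose on the high-fat diet, 1 rose with the siRNA and 2 rose with the inhibitor, and none was called lower in these comparisons (at an unadjusted p under 0.05 edgeR's test found 0, 1 and 0 lower). With the inhibitor 3 were higher and 1 lower than with the siRNA. In either direction 18.4%, 11.7%, 18.2% and 33.8% of all tested genes were called in these 4 comparisons, so that the 2 of 12 with the inhibitor and the 4 of 12 between the treatments lie near the share of all genes. With the GC and length offsets 5 of the 12 were higher on the diet and none lower, and 1 was lower with the siRNA and none higher. Under them 2 were higher and 1 lower with the inhibitor, and 2 were higher and 2 lower between the treatments. Hibch encodes hydroxyisobutyryl-CoA hydrolase, a step of valine breakdown. Its LFD libraries held 34.9, 46.5, 40.1 and 44.9 CPM and its HFD libraries 47.5, 49.9, 47.9 and 50.04 CPM. The siRNA libraries held 44.1, 47.3, 40.6 and 35.5 CPM and the inhibitor libraries 87.98, 80.2, 77.4 and 81.6 CPM. Each inhibitor library was above all 12 other libraries, and each siRNA library was below all HFD libraries. Hibch rose with the inhibitor relative to HFD (log2 fold change 0.74 ± SE 0.10, adjusted p = 6.5e-05) and was 1.95-fold higher than with the siRNA (log2 fold change 0.97 ± SE 0.10, adjusted p = 3.0e-06). The difference between siRNA and HFD did not pass the test (adjusted p = 0.155).

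Mccc2 encodes the beta subunit of methylcrotonyl-CoA carboxylase, an enzyme of leucine breakdown. Its level was 52.3, 46.8, 49.9 and 47.2 CPM in LFD, 45.4, 42.9, 49.8 and 51.5 CPM in HFD and 53.5, 46.8, 47.1 and 43.5 CPM in HFD + siRNA. In HFD + Inhib it was 72.8, 69.1, 61.5 and 65.5 CPM, above all 12 other libraries. Mccc2 rose with the inhibitor (log2 fold change 0.50 ± SE 0.08, adjusted p = 5.7e-04) and was higher than with the siRNA (log2 fold change 0.49 ± SE 0.08, adjusted p = 3.7e-04). Mccc1, which encodes the alpha subunit of the same enzyme, was at 50.1 ± 1.93 CPM in HFD, 59.04 ± 4.27 CPM in HFD + siRNA and 52.9 ± 5.03 CPM in HFD + Inhib, and passed the test in no comparison (adjusted p = 0.071 for siRNA against HFD). By group means the alpha subunit was highest with the siRNA and the beta subunit with the inhibitor.

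Bckdk encodes the kinase that inactivates the branched-chain ketoacid dehydrogenase, the complex that commits these acids to breakdown. Per kilobase of transcript it had the lowest level of the 42 genes. It held 8.68, 8.67, 11.7 and 9.36 CPM in LFD and 10.2, 9.53, 9.37 and 9.34 CPM in HFD. In the siRNA libraries it was at 12.7, 13.6, 12.1 and 12.6 CPM, and in the inhibitor libraries at 10.3, 8.78, 9.42 and 9.65 CPM. All 4 siRNA libraries were above the other 12. Bckdk rose with the siRNA (log2 fold change 0.41 ± SE 0.10, adjusted p = 0.0151) and was lower with the inhibitor than with the siRNA (log2 fold change -0.42 ± SE 0.10, adjusted p = 0.0041). The complex itself is represented by 3 subunits. Bckdhb, a decarboxylase subunit, rose on the high-fat diet from 44.1 ± 3.34 to 54.6 ± 3.18 CPM (log2 fold change 0.31 ± SE 0.10, adjusted p = 0.0347) and was higher with the inhibitor (62.6 ± 8.36 CPM) than with the siRNA (51.1 ± 3.30 CPM, log2 fold change 0.29 ± SE 0.10, adjusted p = 0.0272). Bckdha, the other decarboxylase subunit, and Dbt, the transacylase core, passed in no comparison.

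Aldh6a1 encodes methylmalonate semialdehyde dehydrogenase, which ends valine breakdown at propionyl-CoA. The LFD libraries held 261, 319.7, 284 and 355 CPM and the HFD libraries 392, 343, 414 and 433 CPM. It was 419, 425, 388 and 358 CPM with the siRNA and 519.5, 468, 438 and 507 CPM with the inhibitor. It rose on the high-fat diet (log2 fold change 0.38 ± SE 0.11, adjusted p = 0.0235), with 1 LFD library inside the HFD range. The inhibitor libraries lay above all others, yet the differences from HFD and from the siRNA did not pass the test (adjusted p = 0.0724 and 0.0524). Pcca, a subunit of propionyl-CoA carboxylase, also rose on the high-fat diet, from 65.7 ± 4.11 to 82.4 ± 2.82 CPM (log2 fold change 0.33 ± SE 0.08, adjusted p = 0.012), and its partner Pccb was at 107 ± 11.5 and 117 ± 3.84 CPM (adjusted p = 0.307). Ivd, isovaleryl-CoA dehydrogenase, and Hibadh, hydroxyisobutyrate dehydrogenase, passed in no comparison, with group means of 136 to 169.9 CPM and 187 to 227 CPM.

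Of the branched-chain results, the diet call of Aldh6a1 was lost without LFD replicate 1 or 3 or HFD replicate 3 or 4 (adjusted p 0.0662 to 0.0701) and that of Bckdhb without any LFD or HFD library but LFD replicate 4 and HFD replicate 2 (0.0522 to 0.0941). The call of Bckdhb between the treatments was lost without HFD + siRNA replicate 4 or HFD + Inhib replicate 1 or 4 (0.0677 to 0.0751) and with GC offsets (0.0835), and that of Bckdk with the siRNA without HFD replicate 4 (0.0528) and with GC offsets (0.0676).

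**Figure D3:**
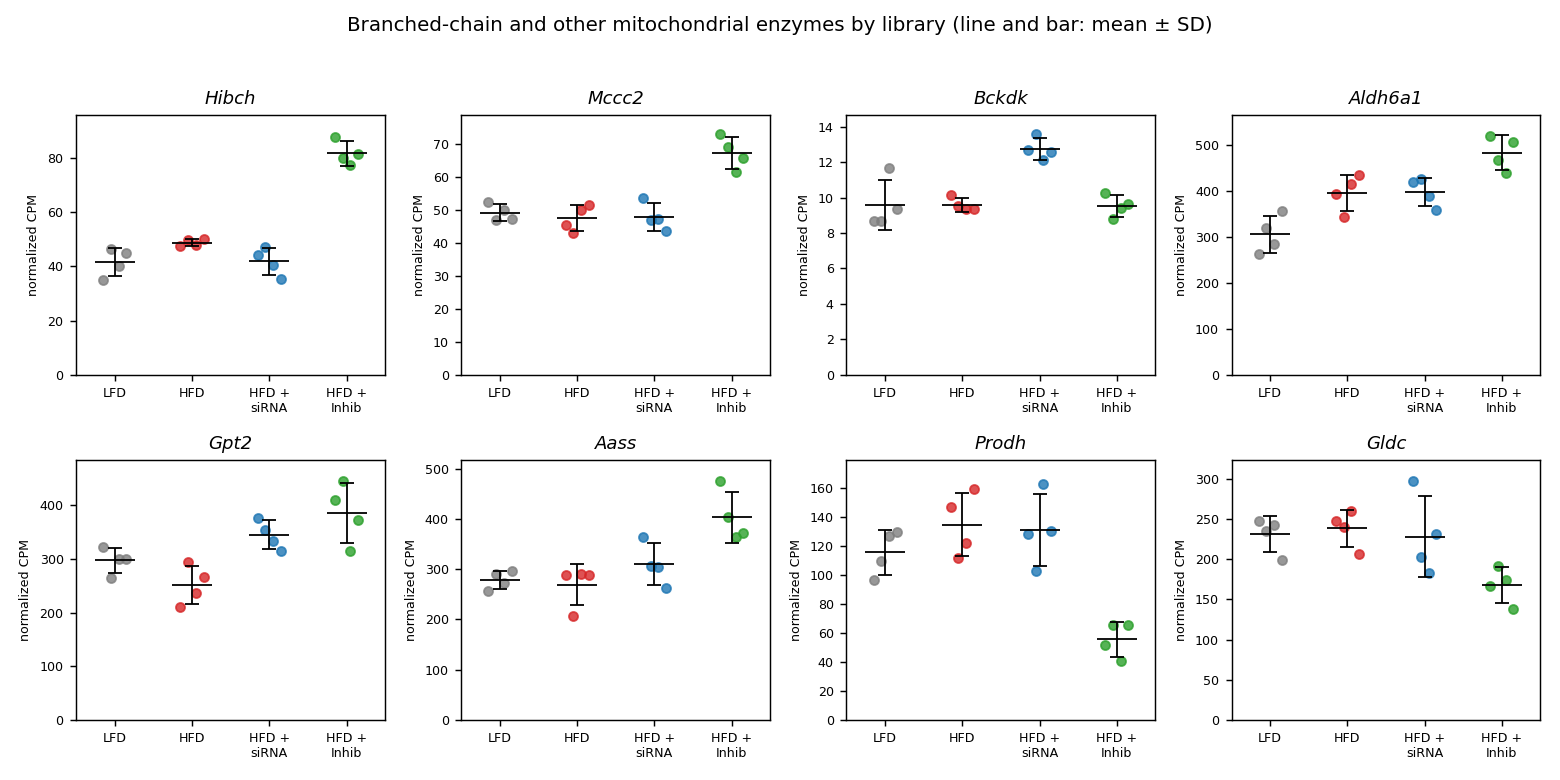
Normalized CPM (vertical axis, from 0) of 4 branched-chain genes (upper row) and 4 other mitochondrial enzymes (lower row) in each of the 16 libraries, with the group mean (line) and SD (bar). The HFD + Inhib libraries of Hibch and Mccc2 lie above all others and those of Prodh below all others.

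Of the 5 sulfur amino acid genes, 1 rose and 1 fell on the high-fat diet, 2 rose with the siRNA, none was called with the inhibitor relative to HFD (2 were lower at an unadjusted p under 0.05 in edgeR's test), and 4 were lower with the inhibitor than with the siRNA. Of all tested genes 9.58% rose and 8.80% fell on the diet, 5.20% rose with the siRNA, and 16.6% were lower between the treatments (20.7% of the well expressed genes). Their summed level was 6612 ± 871 CPM in LFD, 7700.5 ± 330.5 CPM in HFD, 8710.3 ± 855 CPM in HFD + siRNA and 6292 ± 966 CPM in HFD + Inhib. Cbs encodes cystathionine beta-synthase, which joins homocysteine and serine. Its LFD libraries held 603, 407, 371 and 341 CPM and its HFD libraries 281, 261, 283 and 256 CPM. Levels with the siRNA were 592, 398, 418 and 466 CPM and with the inhibitor 229, 206, 169 and 177 CPM. The HFD libraries lay below all LFD and all siRNA libraries, and the inhibitor libraries were the lowest of the 16. Cbs fell on the high-fat diet (log2 fold change -0.67 ± SE 0.16, adjusted p = 0.011), rose with the siRNA (log2 fold change 0.79 ± SE 0.16, adjusted p = 0.00649) and was lower with the inhibitor than with the siRNA (log2 fold change -1.26 ± SE 0.17, adjusted p = 3.6e-05), a 2.40-fold difference. The lower level with the inhibitor than on the high-fat diet alone, -0.47 ± 0.16 (SE), did not pass the test (adjusted p = 0.0568). With DESeq2, in a fit of those 2 groups alone, with GC offsets or without HFD + Inhib replicate 1 it did.

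Cth encodes cystathionine gamma-lyase, which releases cysteine in the following step. It was at 269.8, 264, 233 and 282 CPM in the LFD libraries and 189, 147, 218 and 187 CPM in the HFD libraries. With the siRNA it was at 451, 288, 360.4 and 291 CPM and with the inhibitor at 249, 268, 132 and 173 CPM. The siRNA libraries were the highest 4 of the 16. Cth rose with the siRNA relative to HFD (log2 fold change 0.91 ± SE 0.20, adjusted p = 0.00846) and was lower with the inhibitor than with the siRNA (log2 fold change -0.76 ± SE 0.20, adjusted p = 0.00727). Its lower level on the high-fat diet, -0.50 ± 0.20 (SE), did not pass (adjusted p = 0.088), although the LFD and HFD libraries did not overlap. It passed in a fit of the LFD and HFD groups alone and with GC offsets.

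Gnmt encodes glycine N-methyltransferase, an abundant liver enzyme that consumes S-adenosylmethionine. The LFD libraries held 1488, 817, 1339 and 1097 CPM and the HFD libraries 915, 698, 904 and 973 CPM. Under the siRNA the libraries held 1668, 918, 1335 and 1132 CPM, under the inhibitor 796, 791, 499.97 and 539.8 CPM. Every inhibitor library was below every siRNA library, and Gnmt was 1.92-fold lower with the inhibitor (log2 fold change -0.94 ± SE 0.21, adjusted p = 0.00298). Against HFD neither treatment passed the test (log2 fold change 0.53 with the siRNA, adjusted p = 0.113, and -0.41 with the inhibitor, adjusted p = 0.202).

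Mat1a, which encodes the liver enzyme that makes S-adenosylmethionine, rose on the high-fat diet, where Cbs fell. Its level went from 1903 ± 158 to 3005 ± 267 CPM (log2 fold change 0.66 ± SE 0.13, adjusted p = 0.00287) with no overlap, and was at 2609 ± 257 CPM with the siRNA and 2444 ± 421 CPM with the inhibitor, neither of which passed against HFD. Bhmt, the betaine enzyme that returns homocysteine to methionine, was at 4023 ± 739 CPM with the siRNA and 2791 ± 438 CPM with the inhibitor (log2 fold change -0.53 ± SE 0.19, adjusted p = 0.0398), a call lost without HFD + siRNA replicate 2 or 3 or HFD + Inhib replicate 1, 3 or 4 (adjusted p 0.0795 to 0.131). Bhmt shares 25.3% of its 50-base words with other genes, 24.1% with Gm5096, so that its counts could be divided between them. Mat1a was also the one sulfur gene of the 5 that did not pass the test between the treatments.

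**Figure D4:**
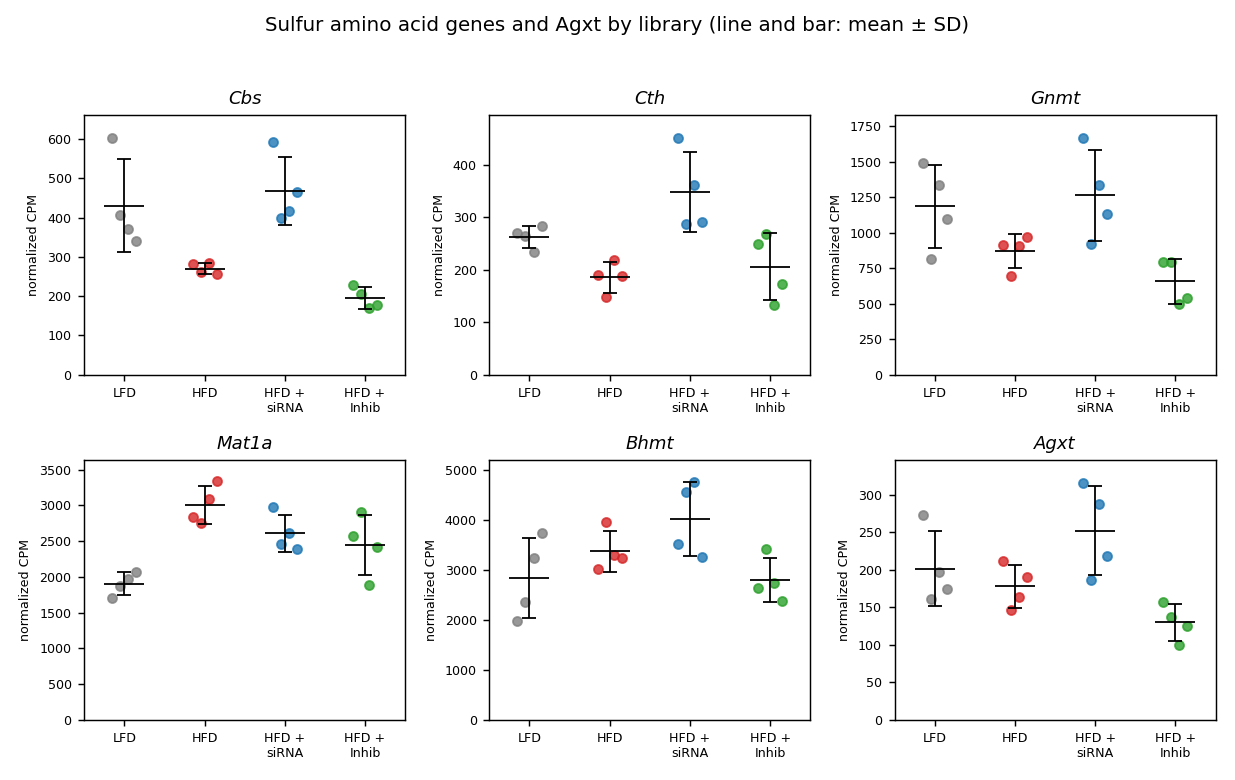
Normalized CPM (vertical axis, from 0) of the 5 sulfur amino acid genes and Agxt in each of the 16 libraries, with the group mean (line) and SD (bar). For Cbs, Cth, Gnmt and Agxt every HFD + Inhib library lies below every HFD + siRNA library.

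Cbs, Prodh, Hibch and Agxt were the 4 genes with the largest change in any comparison, and their promoters are shown for that reason. For Cbs and Agxt that change was a lower level with the inhibitor than with the siRNA, and for Hibch a higher one. For Prodh it was a lower level with the inhibitor than in HFD. Each promoter runs from 250 bases before to 50 bases after the start of the gene, as given by RefSeq on GRCm38.p6, which is not the build (mm39) of the counts. Promoters were matched by symbol for 36 of the 42 genes (40 promoters). Cbs lies at chr17:31637156-31637455 on the minus strand (66.7% G or C, 22 CpG), Prodh at chr16:18089141-18089440 on the minus strand (63.0%, 17 CpG), Hibch at chr1:52844788-52845087 on the plus strand (66.3%, 20 CpG) and Agxt at chr1:93134990-93135289 on the plus strand (54.3%, 3 CpG). Capitals mark the only match found in these 4 to the motifs searched, TGTTCT, which is part of the glucocorticoid receptor motif.
Cbs: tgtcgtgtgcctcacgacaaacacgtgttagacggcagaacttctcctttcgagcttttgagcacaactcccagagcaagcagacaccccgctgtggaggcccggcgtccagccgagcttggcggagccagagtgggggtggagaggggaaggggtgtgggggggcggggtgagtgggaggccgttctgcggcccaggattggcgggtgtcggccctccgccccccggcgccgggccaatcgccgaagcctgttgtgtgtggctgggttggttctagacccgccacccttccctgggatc
Prodh: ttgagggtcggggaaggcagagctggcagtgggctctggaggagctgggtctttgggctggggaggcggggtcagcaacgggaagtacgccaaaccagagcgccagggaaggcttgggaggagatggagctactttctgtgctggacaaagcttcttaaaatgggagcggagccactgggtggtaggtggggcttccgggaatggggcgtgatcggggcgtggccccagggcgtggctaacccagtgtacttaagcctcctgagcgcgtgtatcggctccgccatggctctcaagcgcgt
Hibch: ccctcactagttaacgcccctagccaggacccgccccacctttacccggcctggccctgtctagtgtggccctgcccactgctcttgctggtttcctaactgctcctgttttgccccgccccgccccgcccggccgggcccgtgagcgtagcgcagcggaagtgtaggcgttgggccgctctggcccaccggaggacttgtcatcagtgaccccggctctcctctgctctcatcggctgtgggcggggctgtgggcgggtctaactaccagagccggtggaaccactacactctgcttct
Agxt: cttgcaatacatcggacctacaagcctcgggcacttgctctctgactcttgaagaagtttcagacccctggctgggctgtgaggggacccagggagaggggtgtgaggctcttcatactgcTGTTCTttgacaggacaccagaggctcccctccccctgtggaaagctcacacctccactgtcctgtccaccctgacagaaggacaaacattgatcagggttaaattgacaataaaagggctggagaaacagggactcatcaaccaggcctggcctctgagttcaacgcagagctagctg
On either strand, TGTTCT was in 7 of the 40 promoters of the listed genes (17.5%) and in 19.0% of the 32851 promoters of all genes. The cAMP response half-site TGACG was in 3 of 40 (Aass, Ftcd, Pcca), against 20.8% of all. The spaced C/EBP motif TTGCNNCAA was in 2 of 40 (Aldh6a1, Bckdha), against 2.08%, and the HNF4 motif CAAAGTCCA in 2 of 40 (both of Agxt2), against 0.475%. The full glucocorticoid receptor motif, the full cAMP response site TGACGTCA, the C/EBP palindrome TTGCGCAA and the PPAR motif were in 0 of 40, where TGTTCT and TGACG are parts of the first and second of these. In the same order, they were in 0.0091%, 1.79%, 0.183% and 0.0396% of all promoters, so that 0 of 40 lies near these shares. A match is a description of letters in this window.

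Of the 17 genes of other amino acids, 2 rose and 2 fell on the high-fat diet, 3 rose with the siRNA, and 2 rose and 2 fell with the inhibitor relative to HFD. With the inhibitor 1 was higher and 8 were lower than with the siRNA. The 4 of 17 called on the diet and the 4 of 17 called with the inhibitor lie near the 18.4% and 18.2% of all tested genes, while 5.20% of all genes rose with the siRNA and 16.6% were lower between the treatments. Prodh had the largest change of all 42. It encodes proline dehydrogenase, the first enzyme of proline breakdown in mitochondria. The LFD libraries held 96.7, 109.7, 127 and 129.8 CPM and the HFD libraries 147, 112, 122 and 159 CPM. The siRNA libraries held 129, 103, 163 and 130.4 CPM and the inhibitor libraries 51.4, 65.8, 40.6 and 65.4 CPM. Each inhibitor library was below all 12 others, and the other groups overlapped. Prodh was 2.42-fold lower with the inhibitor than in HFD (log2 fold change -1.27 ± SE 0.17, adjusted p = 7.0e-05) and 2.35-fold lower than with the siRNA (log2 fold change -1.23 ± SE 0.17, adjusted p = 5.4e-05). Aldh4a1, the enzyme of the following step, was at 421 ± 33.8 CPM in HFD and 461 ± 89.9 CPM with the inhibitor and passed in no comparison. It shares 30.0% of its words with Gm21969, which overlaps it.

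Histidine breakdown is a chain of 4 listed enzymes, Hal (histidase), Uroc1 (urocanase), Amdhd1 (imidazolonepropionase) and Ftcd (formiminotransferase). Hal was at 457, 507, 434 and 398 CPM in the LFD libraries and 301, 188, 282 and 274 CPM in the HFD libraries. In the siRNA libraries it was at 435, 249, 290.5 and 311 CPM, and in the inhibitor libraries at 268, 202, 149 and 167 CPM. All LFD libraries were above all HFD libraries, and the inhibitor range reached into both other HFD-fed groups. Hal fell on the high-fat diet (log2 fold change -0.78 ± SE 0.19, adjusted p = 0.012) and was lower with the inhibitor than with the siRNA (log2 fold change -0.71 ± SE 0.19, adjusted p = 0.0101).

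Amdhd1 took the same order. Its LFD libraries held 212, 197, 215 and 184 CPM and its HFD libraries 149, 99.5, 154 and 138 CPM. With the siRNA it was at 208, 123, 155 and 137 CPM and with the inhibitor at 130.03, 93.7, 111 and 105 CPM. The LFD libraries lay above the HFD libraries, and HFD + siRNA replicate 1 stood within the LFD range. Amdhd1 fell on the high-fat diet (log2 fold change -0.58 ± SE 0.16, adjusted p = 0.02) and was lower with the inhibitor than with the siRNA (log2 fold change -0.50 ± SE 0.16, adjusted p = 0.0225). Ftcd had a mean of 294 ± 38.6 CPM in LFD against 218 ± 21.8 CPM in HFD, without overlap, and did not pass (log2 fold change -0.43, adjusted p = 0.0593). It passed with DESeq2, in a fit of the LFD and HFD groups alone and without LFD replicate 2. Uroc1 was at 473 ± 41.95 and 429 ± 46.8 CPM (adjusted p = 0.534), so that 2 of the 4 genes of the chain fell on the high-fat diet. Of all tested genes 8.80% fell on it, and of the well expressed ones 13.0%. Of the Amdhd1 results, the diet call was lost without LFD replicate 1 or 3 or HFD replicate 2 (adjusted p 0.0519 to 0.0556) and the other without HFD + siRNA replicate 1 or HFD + Inhib replicate 2 or 4 (0.0573 to 0.106).

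Glycine is broken down by the glycine cleavage system, whose decarboxylase is encoded by Gldc and whose aminomethyltransferase by Amt. Gldc fell with the inhibitor, from 239 ± 22.9 CPM in HFD to 168 ± 22.6 CPM (log2 fold change -0.51 ± SE 0.14, adjusted p = 0.0172), and was at 228 ± 50.2 CPM with the siRNA (log2 fold change -0.44 ± SE 0.14, adjusted p = 0.0209, inhibitor against siRNA). Amt rose with the siRNA, from 47.4 ± 2.89 to 62.3 ± 4.01 CPM (log2 fold change 0.40 ± SE 0.08, adjusted p = 0.0043), and was at 45.4 ± 1.83 CPM with the inhibitor, below every siRNA library (log2 fold change -0.46 ± SE 0.08, adjusted p = 3.2e-04). The first Gldc call was lost without HFD + Inhib replicate 4 (adjusted p = 0.0614). The second was lost without HFD + siRNA replicate 1 or 4 or HFD + Inhib replicate 4 (0.0535 to 0.104) and with GC offsets (0.113).

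Agxt encodes the peroxisomal aminotransferase that converts glyoxylate to glycine. Its LFD libraries held 273, 162, 197 and 175 CPM and its HFD libraries 211, 146, 164 and 190.03 CPM. Levels with the siRNA were 316, 187, 287 and 219 CPM and with the inhibitor 158, 137, 99.5 and 126 CPM. Every inhibitor library was below every siRNA library, with the HFD libraries between and overlapping both. Agxt was 1.94-fold lower with the inhibitor than with the siRNA (log2 fold change -0.96 ± SE 0.19, adjusted p = 0.00136). Against HFD the log2 fold change was 0.50 with the siRNA (adjusted p = 0.0998) and -0.45 with the inhibitor (adjusted p = 0.117), neither of which passed the test.

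Agxt2, a mitochondrial aminotransferase that also acts on glyoxylate, rose on the high-fat diet and again with the siRNA. Its mean was 99.7 ± 11.9 CPM in LFD, then 149 ± 13.6 CPM in HFD (log2 fold change 0.58 ± SE 0.12, adjusted p = 0.00351) and 194 ± 25.7 CPM in HFD + siRNA (log2 fold change 0.39 ± SE 0.11, adjusted p = 0.0375). With the inhibitor it was at 148 ± 15.7 CPM, lower than with the siRNA (log2 fold change -0.40 ± SE 0.11, adjusted p = 0.0136). The call with the siRNA was lost without HFD replicate 1, 3 or 4 or HFD + siRNA replicate 1, 2 or 3 (adjusted p 0.0659 to 0.131). The call between the treatments was lost without HFD + siRNA replicate 1 (0.0588).

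Alanine is interconverted with pyruvate by a cytosolic enzyme, Gpt, and a mitochondrial one, Gpt2. The LFD libraries held 323, 265, 300.1 and 301 CPM of Gpt2 and the HFD libraries 211, 294, 237 and 266 CPM. Under the siRNA the libraries held 377, 355, 333 and 315 CPM, under the inhibitor 411, 446, 314 and 373 CPM. Both treated groups lay above all HFD libraries and overlapped each other. Gpt2 rose with the siRNA (log2 fold change 0.45 ± SE 0.12, adjusted p = 0.0223) and with the inhibitor (log2 fold change 0.61 ± SE 0.12, adjusted p = 0.0018). Gpt took another order, with 217 ± 30.2 CPM in HFD, 243 ± 40.8 CPM with the siRNA and 164 ± 37.6 CPM with the inhibitor, and was lower with the inhibitor than with the siRNA (log2 fold change -0.57 ± SE 0.17, adjusted p = 0.0167). The siRNA call of Gpt2 was lost without HFD replicate 1, 3 or 4 or HFD + siRNA replicate 1, 2 or 3 (adjusted p 0.0511 to 0.0772), and the call of Gpt without HFD + siRNA replicate 3 or HFD + Inhib replicate 3 (0.0502 to 0.0649).

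Lysine breakdown starts with Aass, aminoadipic semialdehyde synthase. Its LFD libraries held 256, 291, 272 and 296 CPM and its HFD libraries 289, 207, 289.9 and 289 CPM. The siRNA libraries held 364, 306, 305 and 262 CPM and the inhibitor libraries 475, 403, 364 and 371 CPM. The inhibitor libraries lay above all HFD libraries, of which replicate 2 was far below the other 3, and 1 siRNA library reached the inhibitor range. Aass rose with the inhibitor (log2 fold change 0.58 ± SE 0.13, adjusted p = 0.00385) and was higher than with the siRNA (log2 fold change 0.38 ± SE 0.13, adjusted p = 0.027). The second of these calls was lost without HFD + siRNA replicate 3 or 4 or HFD + Inhib replicate 1 (adjusted p 0.0517 to 0.0783) and with GC offsets (0.396). Gcdh, glutaryl-CoA dehydrogenase, which serves lysine and tryptophan, rose on the high-fat diet from 360.1 ± 43.9 to 458 ± 14.1 CPM (log2 fold change 0.35 ± SE 0.10, adjusted p = 0.0291), a call lost without LFD replicate 1 or HFD replicate 1, 3 or 4 (0.0593 to 0.087).

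The remaining genes, Sds (serine dehydratase) and the aspartate aminotransferases Got1 (cytosolic) and Got2 (mitochondrial), passed in no comparison. Sds ranged from 80.9 CPM (HFD mean) to 106 CPM (LFD mean) with the widest relative spread of the 42 genes within each HFD-fed group (101 ± 68.7 CPM with the inhibitor). Got1 ranged from 135 to 154 CPM and Got2 from 427 to 536 CPM over the group means. Got2 shares 16.8% of its words with Got2-ps1. Reads that overlap a gene of the other strand were a further uncertainty for Bckdha (61.7% of its exon bases), Sds (29.6%) and Aldh6a1 (18.6%), since the use of strand in the counting is not given in the sources used here. In all, 16 of the 42 genes were called in no comparison, 10 in 1, 14 in 2 and 2 (Cbs and Agxt2) in 3. Of all tested genes 18.4% were called on the diet, 11.7% with the siRNA, 18.2% with the inhibitor and 33.8% between the treatments. These comparisons share libraries, and the tally was not made over all tested genes.

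Arranged by place in the cell, the list held 22 mitochondrial enzymes, 19 cytosolic ones and the peroxisomal Agxt. On the high-fat diet, where 9.58% of all tested genes rose and 8.80% fell, 5 of the mitochondrial genes rose and none fell (7 and 1 at an unadjusted p under 0.05 in edgeR's test), while 1 cytosolic gene rose and 4 fell. With the GC and length offsets 8 mitochondrial genes rose and none fell on the diet, and 2 cytosolic genes rose and 4 fell. With the siRNA 4 of each rose, against 5.20% of all. The offsets left 3 mitochondrial and 2 cytosolic genes higher with the siRNA, and 1 mitochondrial gene lower. With the inhibitor, 4 mitochondrial genes rose and 2 fell relative to HFD (4 and 3 with the offsets), against 9.80% and 8.42% of all. Of the cytosolic genes none was called there by edgeR's test (4 were lower and none higher at an unadjusted p under 0.05), while Cbs passed as lower with the GC and length offsets (adjusted p = 0.0364) and also passed with DESeq2. In the comparison of the treatments 5 mitochondrial genes were higher and 5 lower with the inhibitor, while 9 of the 19 cytosolic genes were lower and none higher (10 and 0 at an unadjusted p under 0.05). With the offsets 3 mitochondrial genes were higher and 5 lower there, and 9 cytosolic genes were lower and none higher. Of all tested genes 17.3% were higher and 16.6% lower there, and of the well expressed ones (mean log2 CPM of at least 3) 24.6% and 20.7%. The median log2 fold changes of the mitochondrial and the cytosolic genes there were -0.02 and -0.33. Summed levels of the mitochondrial genes were 3713 ± 117 CPM in LFD, 4101 ± 150.05 in HFD, 4453 ± 306 with the siRNA and 4548 ± 464 with the inhibitor. Those of the cytosolic genes were 12587 ± 815, 12993 ± 663, 15219.9 ± 1713 and 11853 ± 1609.8 CPM in the same order.

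Summed over all 42 genes, the level was 16501 ± 938 CPM in LFD, 17272 ± 782 in HFD, 19925 ± 2067 with the siRNA and 16531 ± 2079.7 with the inhibitor. Branched-chain genes summed to 1227 ± 50.6, 1395 ± 81.5, 1459.5 ± 103 and 1599.7 ± 163 CPM in this order, and aromatic genes to 4347 ± 344, 4065 ± 423, 5101 ± 696 and 4572 ± 680.1 CPM. The 17 other genes summed to 4315 ± 262, 4112 ± 274, 4654 ± 665 and 4067 ± 560.3 CPM. These sums follow their most abundant genes, and all 4 groups overlap in the aromatic and the other genes. Per kilobase of median transcript length, mean CPM over the 16 libraries was highest for Hpd (1809), Bhmt (1306), Gnmt (961) and Mat1a (776), and lowest for Bckdk (7.87), Mccc1 (21.3) and Amt (25.1). Taken per kilobase of the longest transcript, Hpd was at 959, below Bhmt (1306) and Gnmt (961), and Mccc2 (24.9) below Amt (25.1), so this order depends in part on the length used.

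**Figure D5:**
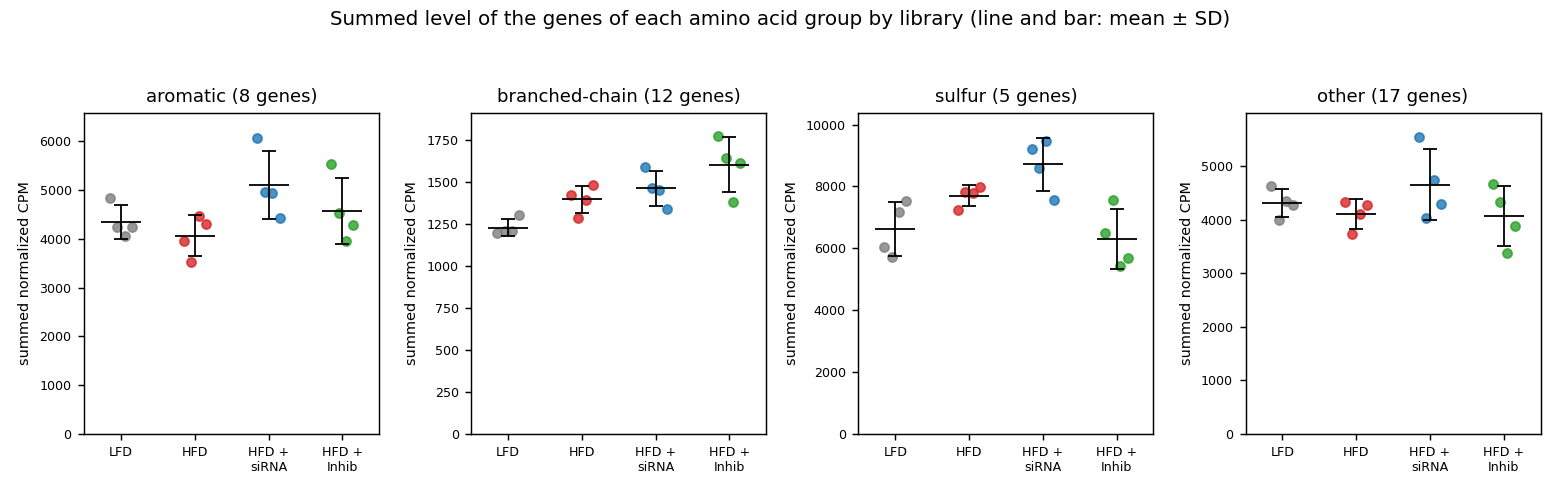
Summed normalized CPM (vertical axis, from 0) of the aromatic, branched-chain, sulfur and other amino acid genes in each of the 16 libraries, with the group mean (line) and SD (bar). The sulfur genes sum to between 7549 and 9478 CPM in the HFD + siRNA libraries and to between 5423 and 7575 CPM in the HFD + Inhib libraries.

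A further 61 genes of the same pathways were listed beside the 42, and 58 of them were tested (not Bcat1, Tdh and Dao). On the high-fat diet 13 rose and 11 fell, with the siRNA 7 rose and 2 fell, and with the inhibitor 15 rose and 7 fell. Between the treatments 13 were higher and 10 lower with the inhibitor. The shares of all tested genes called higher and lower were 9.58% and 8.80% for the diet, 5.20% and 6.55% for the siRNA, 9.80% and 8.42% for the inhibitor and 17.3% and 16.6% between the treatments. With offsets for GC content and length, which left out Mmut for want of a GC value, the counts of the further genes higher and lower were 14 and 8, 5 and 6, 14 and 11, and 15 and 10 in the same order, so that with the siRNA the calls lower came to outnumber those higher. In branched-chain breakdown, 7 of 12 further genes rose with the inhibitor and 1 fell. Hsd17b10, a dehydrogenase of isoleucine breakdown, was at 84.8 ± 4.77 CPM in HFD and 165 ± 18.99 CPM with the inhibitor (log2 fold change 0.96 ± SE 0.11, adjusted p = 1.3e-05), and it also rose with the siRNA (log2 fold change 0.61 ± SE 0.11, adjusted p = 0.00257). Ppm1k, the phosphatase that activates the branched-chain ketoacid dehydrogenase against Bckdk, rose on the high-fat diet (log2 fold change 0.60 ± SE 0.18, adjusted p = 0.0278) and again with the inhibitor (log2 fold change 0.74 ± SE 0.18, adjusted p = 0.00778). Dld, Acat1, Mmut and Mcee also rose with the inhibitor, by log2 fold changes of 0.31 to 0.45, and Bcat2, the mitochondrial aminotransferase of these acids, fell (log2 fold change -0.48 ± SE 0.11, adjusted p = 0.00762). The diet call of Ppm1k (adjusted p = 0.269) and the inhibitor call of Mcee (adjusted p = 0.316) were lost with the offsets. Mmut, 1 of the 7 that rose, was not tested with them. Among the other further branched-chain genes 5 rose and 2 fell with the inhibitor under the offsets. Acadsb, the short and branched-chain acyl-CoA dehydrogenase, was added to those that fell (adjusted p = 0.0154).

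In sulfur amino acid breakdown, Csad, the decarboxylase that leads cysteine to taurine, fell on the high-fat diet from 361 ± 159 to 69.1 ± 37.4 CPM (log2 fold change -2.38 ± SE 0.37, adjusted p = 6.7e-04). With the inhibitor it was at 244 ± 23.1 CPM (log2 fold change 1.82 ± SE 0.36, adjusted p = 0.00221) and with the siRNA at 84.6 ± 31.2 CPM (adjusted p = 0.644). Cdo1, cysteine dioxygenase, which acts before Csad, fell with the inhibitor (log2 fold change -0.58 ± SE 0.14, adjusted p = 0.00765). Ethe1, which oxidizes sulfide products, fell on the high-fat diet (log2 fold change -1.20 ± SE 0.16, adjusted p = 2.1e-04) and rose with the siRNA (log2 fold change 0.79 ± SE 0.16, adjusted p = 0.00514). Mat2a, the form of the S-adenosylmethionine synthetase found in most tissues, rose with the inhibitor (log2 fold change 0.54 ± SE 0.13, adjusted p = 0.00849), where its liver counterpart Mat1a did not pass the test.

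Of the 11 further aromatic genes, 3 rose with the siRNA and none was called lower in edgeR's test (none also at an unadjusted p under 0.05), against 5.20% of all tested genes higher and 6.55% lower. They were Acmsd, a branch point of the kynurenine pathway (log2 fold change 1.11 ± SE 0.27, adjusted p = 0.0149), Kyat3, a kynurenine aminotransferase (log2 fold change 0.76 ± SE 0.13, adjusted p = 0.00213), and Afmid, kynurenine formamidase (log2 fold change 0.54 ± SE 0.16, adjusted p = 0.0431), and the same 3 and Kyat1 fell on the high-fat diet (log2 fold changes -1.10, -0.48, -0.64 and -0.34), where 9.58% of all genes rose and 8.80% fell. The diet and the siRNA comparison share the HFD libraries, so the fall and the rise of the same gene are not separate results. Pcbd1, a helper of phenylalanine hydroxylase, and Gstz1, which acts before Fah, rose on the high-fat diet (log2 fold change 0.34 ± SE 0.09, adjusted p = 0.0175 and log2 fold change 0.29 ± SE 0.08, adjusted p = 0.0248). With the GC and length offsets 2 of the 11 rose and 1 fell with the siRNA, Afmid no longer passing (adjusted p = 0.116) and Pcbd1 passing as lower (adjusted p = 0.00351), and on the high-fat diet the call of Kyat1 was lost (adjusted p = 0.189). Among 18 further genes of other amino acids, 6 rose and 3 fell on the high-fat diet, and 1 rose and 2 fell with the siRNA (1 and 5 with the offsets). Oat, ornithine aminotransferase, rose on the high-fat diet (log2 fold change 1.31 ± SE 0.25, adjusted p = 0.00256) and was lower with the inhibitor than with the siRNA (log2 fold change -1.39 ± SE 0.25, adjusted p = 5.6e-04). Glul, glutamine synthetase, also rose on the high-fat diet (log2 fold change 1.23 ± SE 0.23, adjusted p = 0.00243), as did Glud1, glutamate dehydrogenase (log2 fold change 0.44 ± SE 0.11, adjusted p = 0.0147), which fell with the inhibitor (log2 fold change -0.51 ± SE 0.11, adjusted p = 0.00484). Pipox, a peroxisomal oxidase of pipecolic acid from lysine, rose with the siRNA (log2 fold change 0.56 ± SE 0.08, adjusted p = 8.0e-04) and fell with the inhibitor (log2 fold change -0.47 ± SE 0.08, adjusted p = 6.8e-04). Those that fell were Sdsl, Aspg and Gcat on the diet (log2 fold changes -1.11, -0.77 and -0.63), with the call of Sdsl lost with the offsets (adjusted p = 0.0777), and Ddo and Hoga1 with the siRNA (log2 fold changes -0.59 and -0.36).

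The 7 genes of the urea cycle and its transport, which take up the nitrogen that these enzymes release, summed to 10112 ± 831 CPM in LFD, 8157 ± 961 in HFD, 9783 ± 1263 with the siRNA and 6262 ± 1112 with the inhibitor. Nags, which makes the activator of the cycle, fell on the high-fat diet (log2 fold change -0.55 ± SE 0.18, adjusted p = 0.0453), a call lost with the GC and length offsets (adjusted p = 0.0827), and with the siRNA none was called, also at an unadjusted p under 0.05 in edgeR's test. With the inhibitor Cps1, the first enzyme of the cycle (log2 fold change -0.53 ± SE 0.14, adjusted p = 0.0146), and Asl, argininosuccinate lyase (log2 fold change -0.60 ± SE 0.14, adjusted p = 0.00698), fell. Relative to the siRNA, Cps1, Ass1, Asl and Nags were lower with the inhibitor (log2 fold changes -0.81, -0.71, -0.69 and -0.83), while Otc and Slc25a15 did not pass. Of all tested genes 8.80% were lower on the diet, 8.42% with the inhibitor and 16.6% between the treatments. With the offsets Otc was also lower (adjusted p = 0.0147 against HFD and 8.3e-04 against the siRNA).

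Marker genes of hepatocytes moved with the inhibitor too. Their summed level was 82084 ± 6846 CPM in LFD, 72644 ± 7712 in HFD, 77052 ± 5117 with the siRNA and 47044 ± 1027 with the inhibitor, and 4 of 6 (Alb, Ttr, Cps1, Serpina1c) fell with the inhibitor relative to HFD, where 8.42% of all tested genes fell. On the high-fat diet 2 of the 6 fell (Apoa1 and Serpina1c), where 8.80% of all tested genes fell. With the siRNA 1 rose (Serpina1c), where 5.20% of all tested genes rose. With the GC and length offsets 1 hepatocyte marker fell on the diet, and 1 rose and 1 fell with the siRNA. Of the other lists, 1 stellate cell, 1 cholangiocyte and 1 adipocyte marker rose on the diet, where 9.58% of all tested genes rose. With the offsets 2 stellate cell markers, 1 adipocyte marker and no cholangiocyte marker rose on it. Alb, the most abundant hepatocyte marker, had a log2 fold change of -0.77 ± 0.13 (SE, adjusted p = 7.6e-04) with the inhibitor. Cyp2e1, in the same list, was higher with the inhibitor than with the siRNA (log2 fold change 0.91 ± SE 0.21, adjusted p = 0.00389), and Apoa1 passed in neither comparison with the inhibitor. Markers of Kupffer cells summed to 201 CPM in HFD, 238 CPM with the siRNA and 153 CPM with the inhibitor, led by Clec4f, with 2 of 7 lower with the inhibitor than in HFD. Those of stellate cells summed to 485, 534 and 369 CPM (2 of 6 lower) and those of endothelial cells to 485, 549 and 466 CPM (none of 6 called by edgeR's test relative to HFD, also at an unadjusted p under 0.05). Cholangiocyte markers, led by Spp1, summed to 38.02, 36.1 and 36.7 CPM. Lymphocyte markers, led by Cd79a in LFD, summed to 3.66, 2.94 and 1.92 CPM (2 of 6 lower with the inhibitor). Of 4 adipocyte markers Adipoq, Plin1 and Lep did not pass the filter on low counts, while Cidea, which also coats lipid droplets in fatty liver, brought the sum to 16.6 CPM with the inhibitor from 0.718 CPM in HFD. That HFD mean rests mostly on replicate 2, at 2.26 CPM, while the remaining HFD libraries held 0.265, 0.152 and 0.195 CPM. The markers of pancreas and of kidney tubule did not pass the filter, with sums of at most 6.51 CPM and 0.0989 CPM in any library. Between the treatments, 4 of the 6 hepatocyte markers were lower and 1 higher with the inhibitor. The markers lower there were 4 of 7 for Kupffer cells, 3 of 6 for stellate cells, 1 of 6 for endothelial cells and 2 of 6 for lymphocytes, where 16.6% of all tested genes were lower, and none of the 5 cholangiocyte markers was called by edgeR's test (1 was higher at an unadjusted p under 0.05). The part of these markers in the changes of the amino acid genes was not tested.

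GC content moved with every comparison as well. Across the 8342 well expressed genes with a known GC content, Spearman's rho between log2 fold change and GC content was -0.50 for HFD against LFD, 0.47 for the siRNA against HFD, -0.27 for the inhibitor against HFD and -0.51 for the inhibitor against the siRNA, as a description across genes that share libraries. With offsets for GC content and length, 10 of the 42 genes rose and 4 fell on the high-fat diet, 5 rose and 1 (Pcca) fell with the siRNA, and 4 rose and 4 fell with the inhibitor. Between the treatments 3 were then higher and 15 lower with the inhibitor. Of the 15858 genes tested with the offsets, 2584, 1580, 3363 and 4728 were called in these 4 comparisons. The results of Cbs, Cth, Gnmt, Mat1a, Hibch, Mccc2, Gpt2, Prodh, Hal, Amdhd1, Amt, Agxt and Agxt2 that passed the test did so with these offsets as well.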

How the data were processed

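RNA was measured in 16 libraries of mouse liver, 4 per group by the deposited labels. What the authors deposited was a single table with the expected counts of each gene symbol from RSEM, which divides reads that match several genes, and the values were not scaled between libraries. The submitters' processing notes name STAR, RSEM and the build mm39, and their versions are not given in the sources used here. The paper's methods name HTG EdgeSeq, a probe assay that does not match such counts (15.1% of all values in the table, zeros included, were not whole numbers), so which assay made the table is unsettled.

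Expected counts were rounded, filtered by filterByExpr (minimum count 10, minimum total 15), which kept 18335 of 33142 genes with any count, and scaled by TMM. All 16 libraries entered 1 fit of edgeR's quasi-likelihood test with 12 residual degrees of freedom, p-values adjusted after Benjamini and Hochberg across the 18335 genes, at a threshold of 0.05. R 4.3.3, edgeR 4.0.16, limma 3.58.1 and DESeq2 1.42.0 were used, and the code was tested on simulated data. No library pair of a group agreed within sampling noise (chi-square per gene 20.6 to 154 over 24 pairs). Totals limit the precision of low genes, and the lowest count of a listed gene in any library is far above the floor of 3 counts.

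The 42 genes and the other lists were chosen with earlier results of these data known. Values in every library are given for Khk and for the members with the largest absolute log2 fold change among those called in any comparison (4 aromatic, 4 branched-chain, 3 sulfur, 6 other). Other genes were given by means. Further genes, the urea cycle, regulators and cell markers were counted from fixed lists, and the genes named from them were chosen after their values were seen. A few genes of these lists are not reported here by name. GC content, length and shared sequence came from GENCODE M21, and promoters from RefSeq, both on GRCm38.

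Alternatives were DESeq2, its size factors (RLE) in edgeR, no filter, a fit of the compared groups, a filter of at least 10 counts per library, the replicate number as a block, offsets for GC content and length (a spline with 5 degrees of freedom over genes with a mean log2 CPM of at least 3, for 15858 genes), each library left out, an adjusted p under 0.01 and a minimum of 0.5 for the absolute log2 fold change.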

Additional observations from a re-analysis of the deposited data

Results flagged for a closer look

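A library far from the other 3 of its group was found in 8 of 172 groups of values examined (43 genes in 4 groups), and chance gives about 1 in 20. Of these, 3 were a high replicate 1 of a treated group: Tat in HFD + Inhib replicate 1 was at 1158 CPM, with the nearest library at 616 CPM. Sds in the same library was at 203 CPM, with the nearest at 76.2 CPM. Hgd in HFD + siRNA replicate 1 was at 550.1 CPM, with the nearest at 406 CPM. In LFD, Hgd was highest in replicate 1 (421 CPM, nearest 361 CPM) and Hpd in replicate 3 (1328 CPM, nearest 1194 CPM).

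The others were low values. HFD replicate 2 held 207 CPM of Aass, with the nearest library at 289 CPM, and 359 CPM of Uroc1, with the nearest at 444 CPM. Bckdhb was at 46.2 CPM in HFD + siRNA replicate 4, with the nearest at 52.6 CPM. The cause of these values was not tested.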

How the results depend on the processing

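Of the 47 single-gene results past the threshold (44 of the 42 listed genes and 3 of Khk), DESeq2 and the replicate block kept all 47 past it, RLE size factors 45, at least 10 counts in every library 46, no filter 41, the compared groups alone 40 and the GC and length offsets 38, and none changed direction. With single libraries left out, 27 of the 47 stayed past the threshold in all of their 8 fits. The replicate numbers did not pair the libraries: the correlation of deviations of same-numbered libraries ran from -0.13 to 0.34 over 24 pairs, and 4 of 16 libraries correlated best with their own number. With the replicate block, 4 listed genes were lower with the inhibitor than in HFD, where 2 were without it, Cbs and Agxt being added, and Ftcd (HFD against LFD) and Agxt (siRNA against HFD) also passed.

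With the GC and length offsets the listed genes called higher numbered 10 for HFD against LFD, 5 for the siRNA against HFD and 3 for the inhibitor against the siRNA, and those called lower 1 for the siRNA against HFD and 4 for the inhibitor against HFD. At an adjusted p under 0.01, in the order of the 4 comparisons, 2, 3, 4 and 2 listed genes were higher and 0, 0, 1 and 7 lower, and 1287, 689, 1733 and 3711 of all genes were called. With a minimum absolute log2 fold change of 0.5, 2, 3, 4 and 1 were higher and 3, 0, 2 and 9 lower, and 2101, 1261, 2198 and 4136 of all genes were called. Under both, fewer calls follow from the stricter threshold. The cause of the other differences was not tested.

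With each library left out, the listed genes called higher ranged from 3 to 6, 4 to 6, 4 to 6 and 2 to 6, those called lower from 2 to 5, 0 to 0, 1 to 4 and 11 to 14, and all genes called from 2001 to 3691, 1100 to 1981, 2532 to 3050 and 4934 to 6251. For HFD against LFD, 3 were higher without HFD replicate 3 or 4 or LFD replicate 1. For the siRNA against HFD, 4 were higher without HFD replicate 1, 3 or 4 or HFD + siRNA replicate 1 or 3. Each such fit has fewer samples.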

Other observations

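Regulators of these pathways were listed as 11 genes. Ppara, the receptor that turns on fat oxidation and lowers several amino acid enzymes in liver, had a mean of 273 ± 30.7 CPM in LFD against 478 ± 92.9 CPM in HFD and rose on the high-fat diet (log2 fold change 0.81 ± SE 0.13, adjusted p = 7.6e-04). It was at 586 ± 61.7 CPM with the inhibitor, higher than with the siRNA (437 ± 27.3 CPM, log2 fold change 0.42 ± SE 0.13, adjusted p = 0.0165). Klf15, a factor that raises amino acid breakdown in fasting, was at 157 ± 26.6 CPM with the siRNA and 120.1 ± 18.7 CPM with the inhibitor (log2 fold change -0.39 ± SE 0.13, adjusted p = 0.0294). The hepatocyte factor Hnf4a (log2 fold change -0.40 ± SE 0.09, adjusted p = 0.00267) and the glucagon receptor Gcgr (log2 fold change -0.44 ± SE 0.13, adjusted p = 0.018) were also lower with the inhibitor than with the siRNA. With offsets for GC content and length the calls of Klf15 (adjusted p = 0.194), Hnf4a (adjusted p = 0.148) and Gcgr (adjusted p = 0.11) were lost in edgeR's test, so that 2 of the 11 were higher (Ppara and Cebpb) and 1, a gene not named here, lower with the inhibitor than with the siRNA, where 1 was higher and 4 were lower without them. Of all tested genes 17.3% were higher and 16.6% lower in this comparison without the offsets.

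Against HFD, none of the 11 passed edgeR's test with either treatment, while at an unadjusted p under 0.05 it found 3 higher and 1 lower with the siRNA and 1 higher and 4 lower with the inhibitor. Of all tested genes 11.7% passed with the siRNA and 18.2% with the inhibitor, so that few of 11 would pass at these shares. Ppargc1a had a log2 fold change of -0.80 ± 0.27 (SE) with the siRNA (adjusted p = 0.0616) and Cebpa one of -0.41 ± 0.17 (SE) with the inhibitor (adjusted p = 0.108). Foxo1, Cebpb, Nr3c1 and Atf4 passed in none of the 4 comparisons without the offsets.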
